A study of Homo sapiens with 12 samples.

Results

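The VC-resistant line is a derivative of WM1366, an established human melanoma cell line with a mutation in NRAS, that grows in vemurafenib plus cobimetinib. It was compared with its parent, called sensitive, which was grown in the solvent DMSO, over every gene of a table of read counts. Each group had 3 libraries from independent experiments numbered 2, 5 and 6, and cells had been seeded 72 h before lysis. A DT-resistant line (dabrafenib plus trametinib) and an EB-resistant line (encorafenib plus binimetinib), both made from the same parent and with 3 libraries each, shared the statistical model and are used here only to show where the VC-resistant line differed. Thus 6 of the 12 libraries carry the comparison, and 17114 genes had enough counts to be tested. Each drug pair is represented by 1 line, and the resistant cells were lysed with drug present, so resistance, the drugs themselves and culture history cannot be told apart. P-values measure the spread between the 3 experiments, not between independently derived lines.

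NRAS passes growth signals to the RAF kinases, which activate MEK, which in turn activates ERK. Vemurafenib inhibits mutant BRAF and cobimetinib inhibits MEK. In cells with mutant RAS, a BRAF inhibitor can bind RAF dimers and raise the activity of the partner kinase, so that a MEK inhibitor is needed to hold the pathway down. Melanoma cells can also move between a pigmented state maintained by MITF and dedifferentiated states that resemble neural crest or mesenchymal cells.

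Total counts per library ranged from 40491309 to 54495132 in the 6 libraries, and correlations of log2 values across genes ranged from 0.9887 to 0.9934 within VC-resistant and from 0.9899 to 0.9936 within sensitive. By the chi-square of the counts per gene, VC-resistant replicate 2 differed more from replicates 5 and 6 (29.5 and 39.9) than these from each other (9.7), and pairs of sensitive libraries gave 20.9 to 42.8. Without VC-resistant replicate 2, 8667 genes were called against sensitive, 4404 higher and 4263 lower. A call is an adjusted p under 0.05 from edgeR's quasi-likelihood test with Benjamini-Hochberg adjustment over all tested genes, and rose and fell below mean a call. Levels are given as CPM, a gene's counts scaled to the library total after its adjustment by the TMM factor, per library, in the order of experiments 2, 5 and 6, and log2 fold changes (VC-resistant minus sensitive unless another pair is named) with their standard error. CPM values are not divided by gene length, so the levels of different genes are not compared, and a sum over genes weights long transcripts more. Between the VC-resistant and sensitive groups 9411 genes (55.0%) were called, 4717 (27.6%) higher and 4694 (27.4%) lower. Counts of list members that rose or fell against sensitive are to be read beside these shares. By at least 2-fold, 1649 (9.64%) were higher and 1579 (9.23%) lower. The line differed from DT-resistant at 2702 genes (15.8%), or 1722 without VC-resistant replicate 6, and from EB-resistant at 9991 (58.4%).

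A group of neighbouring genes on chromosome 3 rose together. From TMEM40 to NUP210 (hg38 chr3:12733528-13420322, 687 kb), 6 tested genes in a row rose by at least 2-fold, as 9.64% of all genes did. The stretch was taken from a run chosen for such rises, so that count is fixed by the choice. The 4 genes with a mean of at least 1 CPM in either group had log2 fold changes between 2.76 and 5.53. NUP210, a membrane protein of the nuclear pore, went from 54.8, 49.4 and 45.6 CPM to 2406, 2343 and 2188 CPM. The groups lie far apart. Its ratio of mean CPM was 46.3 and its log2 fold change 5.53 ± 0.11 (adjusted p = 1.96e-14).

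The other members of the stretch behaved alike, with differences in size. RPL32, a protein of the large ribosomal subunit, rose from 776, 750 and 736 to 12014, 10634 and 11394 CPM (3.91 ± 0.080). IQSEC1, an activator of ARF GTPases, rose from 36.8 ± 1.94 to 510 ± 27.4 CPM (SD, n = 3) with a log2 fold change of 3.79 ± 0.094. TMEM40, a membrane protein gene, was the most variable of the well-counted members, at 209, 119 and 88.0 CPM against 20.4, 19.6 and 21.4 CPM in the parent (2.76 ± 0.27). CAND2 and the long noncoding RNA ENSG00000272263 stayed under 1 CPM in all 6 libraries. The call of CAND2 (adjusted p = 0.0146, from 7 counts in the parent and 28 in the line) was lost in 2 of the 12 fits that left out 1 library. These were the fits without sensitive replicate 5 and without VC-resistant replicate 5, in which the run that ends at NUP210 held 4 genes, from ENSG00000272263 on.

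The genes after the stretch did not share its rise. HDAC11, a histone deacetylase and the next gene after NUP210 with at least 1 CPM, fell from 2.15 ± 0.655 to 0.482 ± 0.428 CPM (-2.21 ± 0.43, adjusted p = 0.000554, and -3.13 without VC-resistant replicate 2). CHCHD4 and TMEM43 further out were not called, and XPC, a DNA damage sensor, fell by 0.32 on the log2 scale. These 4 neighbours were chosen after their values were seen, for being nearest with at least 1 CPM in either group. Together, the 6 genes of the stretch took 0.0866 ± 0.00273% of all counts in the sensitive libraries and 1.39 ± 0.0310% in the VC-resistant ones (SD, n = 3). Over the whole of chromosome 3, 226 of 948 tested genes rose (23.8%).

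**Figure D1:**
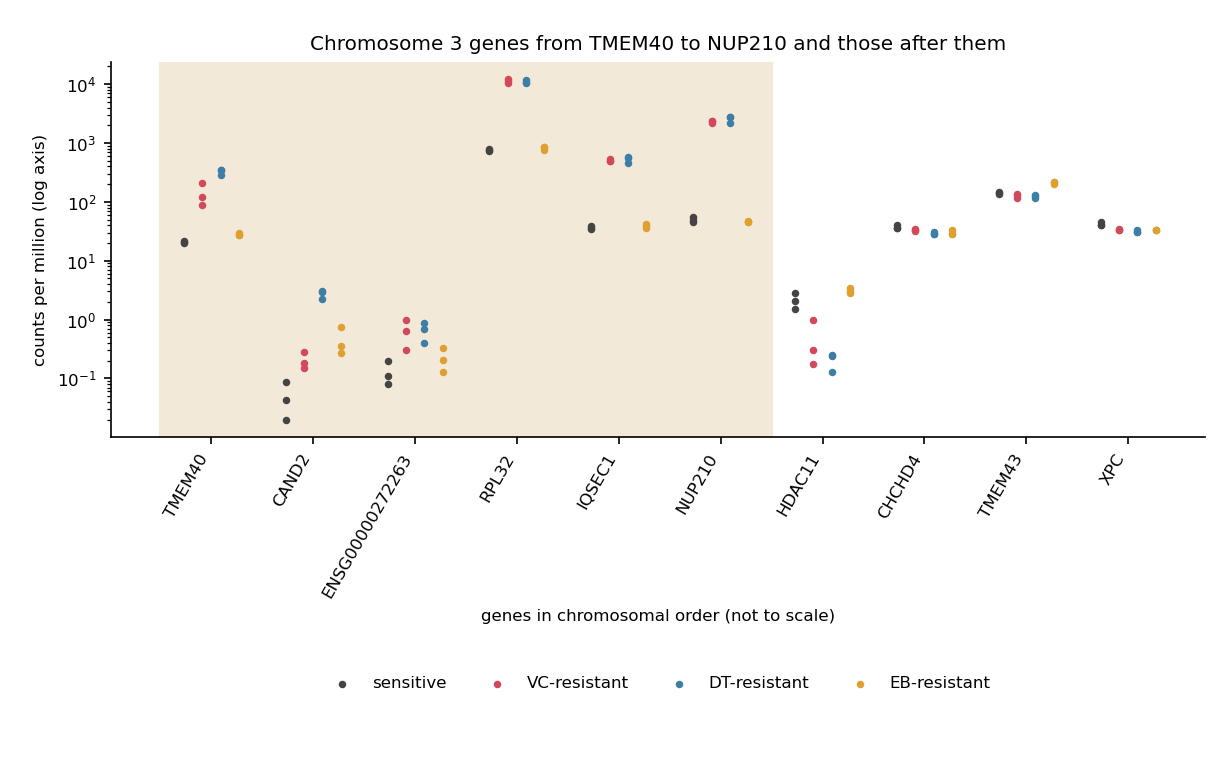
CPM on a log axis for each of the 12 libraries (points, coloured by group) at the 6 genes of the chromosome 3 stretch (shaded) and the 4 genes after them, in chromosomal order and not to scale. Inside the shading the VC-resistant and DT-resistant points lie above the other groups at the well-counted genes, as at NUP210 with means of 2313 and 2555 against 49.9 and 45.7 CPM. Outside it the groups lie closer together at CHCHD4, TMEM43 and XPC. At HDAC11 VC-resistant and DT-resistant lie below sensitive and EB-resistant (means 0.482 and 0.208 against 2.15 and 3.09 CPM).

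The same stretch was high in DT-resistant and not in EB-resistant. NUP210 averaged 2555 ± 343 CPM in DT-resistant and 45.7 ± 0.580 CPM in EB-resistant (SD, n = 3), and the VC-resistant line exceeded the latter by 5.66 ± 0.11 on the log2 scale (adjusted p = 1.71e-14). All 4 well-counted genes were called higher than in EB-resistant. NUP210, RPL32 and IQSEC1 differed from DT-resistant by -0.14 ± 0.091, 0.02 ± 0.071 and -0.05 ± 0.084 on the log2 scale, and none of these passed the test. TMEM40 was lower than in DT-resistant by 1.23 on the log2 scale (log2 difference -1.23 ± 0.25, adjusted p = 0.00864), where it averaged 325 CPM. CAND2 showed the widest gap, with 0.206 CPM in VC-resistant and 2.71 CPM in DT-resistant (log2 difference -3.71 ± 0.39, adjusted p = 1.12e-05).

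Among 35 tested regulators of RAS and RAF, 10 rose and 10 fell, close to the shares over all genes (27.6% and 27.4%), with a median log2 fold change of -0.03 against -0.00 for all genes. Single members are given for their own values. RASGRP3, an exchange factor that loads RAS with GTP, rose from 0.522, 0.417 and 0.305 to 7.14, 6.47 and 5.88 CPM (3.96 ± 0.26, adjusted p = 1.49e-08). RASGRF1, another exchange factor, rose from 12.1, 10.3 and 10.5 to 19, 23.1 and 22.4 CPM (0.97 ± 0.11) and was also higher than in DT-resistant by 0.70 and than in EB-resistant by 0.90 on the log2 scale. The groups do not overlap at either gene. BRAF, the kinase that vemurafenib binds, rose from 35.4, 30.9 and 28.2 to 46.9, 44.1 and 48.0 CPM (0.56 ± 0.11), and MAP3K8, a kinase that can activate MEK without RAF, from 0.384 to 1.61 CPM on average (2.07 ± 0.34). On the other side, DAB2IP, a GTPase-activating protein that turns RAS off, fell from 14.8, 14.5 and 14.6 to 1.31, 1.43 and 1.21 CPM (-3.47 ± 0.19), while EB-resistant kept 15.4 CPM. The exchange factor SOS1 fell by 0.72 on the log2 scale, the RAS gene HRAS by 0.78, and SHOC2, a scaffold that helps RAS activate RAF, by 0.45. NRAS itself stood at 377 ± 13.4 CPM in the parent and 368 ± 12.9 CPM in the line (SD, n = 3) and was not called (-0.03 ± 0.058, adjusted p = 0.638).

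Genes whose transcription follows ERK activity fell in part. Of 25 tested members, 14 fell and 2 rose with a median of -0.35, where 27.4% and 27.6% of all genes did. In DT-resistant 17 fell (median -0.74, against a background of 29.3%), and in EB-resistant 20 fell and 1 rose (median -1.59, against 27.6% and 28.5%). Those 3 comparisons share the sensitive libraries. Tested directly, 12 of the 25 were higher in VC-resistant than in DT-resistant and 2 lower, where 7.08% and 8.71% of all genes were, and 19 were higher than in EB-resistant and 2 lower (28.8% and 29.6%). DUSP6, a phosphatase that turns ERK off and is induced by it, had 108, 112 and 100 CPM in the parent and 44.1, 38.8 and 31.3 CPM in the line, a fall of 1.49 ± 0.17 on the log2 scale. Its mean was 17.1 CPM in DT-resistant and 5.63 CPM in EB-resistant, so the VC-resistant line kept the highest level of the 3 resistant lines (log2 differences 1.15, adjusted p = 0.000481, and 2.75, adjusted p = 6.21e-08).

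SPRY4, which restrains receptor signals once ERK is active, had 56.5, 50.1 and 44.2 CPM in the parent and 55.4, 43.5 and 37.3 CPM in the line. The groups overlap and the gene was not called (-0.15 ± 0.23, adjusted p = 0.605), while its mean was 20.3 CPM in DT-resistant and 0.936 CPM in EB-resistant. CCND1, the G1 cyclin, fell from 394, 435 and 435 to 172, 174 and 190 CPM (-1.24 ± 0.12), with 37.6 CPM in EB-resistant. ETV5, an ETS factor, fell by 0.34 ± 0.11 (adjusted p = 0.0174). That call was lost without sensitive replicate 2, sensitive replicate 5 or VC-resistant replicate 6 (adjusted p between 0.0544 and 0.0653). SPRED3, an inhibitor of RAF activation, fell by 1.51 ± 0.15 and IER3, an early response gene, by 1.27 ± 0.13. VGF, a secreted neuropeptide precursor, rose from 5.61, 6.01 and 5.74 to 6.56, 10.9 and 11 CPM (0.71 ± 0.19).

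**Figure D2:**
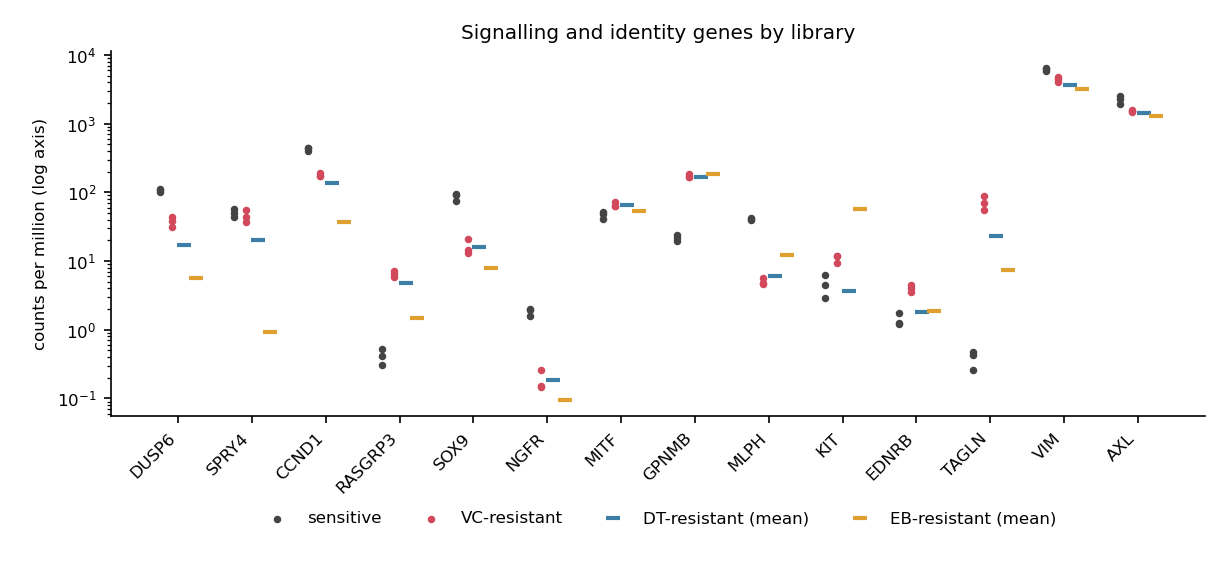
CPM on a log axis for 14 signalling and identity genes, with each of the 3 sensitive and 3 VC-resistant libraries as a point and the means of the 2 other resistant lines as dashes. DUSP6 steps down from sensitive through VC-resistant (38.1) and DT-resistant (17.1) to EB-resistant (5.63), while TAGLN is highest in VC-resistant.

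The lowest medians over windows of 40 neighbouring genes lay on the short arm of chromosome 2. Between 40 and 60 Mb, 49 of 63 tested genes fell (77.8%, median -1.05), and between 0 and 20 Mb 42 of 65 (64.6%, median -0.78), against 27.4% of all genes. In the next step, from 60 to 80 Mb, 21 of 135 fell (15.6%) and 50 rose. The longest run of consecutive called genes in 1 direction by at least 2-fold held 13 genes at chr2:40097270-44361862, from SLC8A1 to PREPL, with a median of -1.82. EML4, a microtubule-binding protein, fell there from 88.6, 89.0 and 93.1 to 16.9, 16.9 and 18.1 CPM (-2.38 ± 0.081, adjusted p = 1.23e-11). LRPPRC, which stabilises mitochondrial mRNAs, fell from 490, 492 and 508 to 191, 184 and 187 CPM (-1.41 ± 0.061), and THADA by 2.11 ± 0.090. The libraries of the groups do not overlap at any of these genes.

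Further along the arm the mismatch repair gene MSH6 fell by 1.04 ± 0.11. FBXO11, a ubiquitin ligase subunit next to it, fell from 54.3, 49.8 and 47.3 to 7.79, 5.28 and 6.49 CPM (-2.96 ± 0.17). At chr2:9488486-10211725 and chr2:10302889-10692099 lay runs of 8 and 5 genes with medians of -1.46 and -1.65. They include YWHAQ, a 14-3-3 protein (from 475, 570 and 594 to 167, 159 and 174 CPM), ADAM17, a sheddase for growth factors (-1.15 ± 0.085), RRM2, a ribonucleotide reductase subunit (-1.69 ± 0.24), and ODC1, the first enzyme of polyamine synthesis (-1.67 ± 0.23). Not every gene of the arm fell. EPAS1, a hypoxia-inducible factor at 46 Mb, rose from 33.6, 32.2 and 27.3 to 99.8, 78.8 and 80.1 CPM (1.47 ± 0.11), and RASGRP3 also lies on this arm. The medians over the 13-gene run were -2.06 in DT-resistant and -1.09 in EB-resistant.

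In the opposite direction, a cluster of KRAB zinc-finger genes on chromosome 19 rose. Within chr19:20432552-21245241 a run of 10 genes had a median log2 fold change of 4.50, and the 40-gene window around it (chr19:19710472-24077377) had the highest median of all 16181 windows, 1.87, with 31 genes up and 1 down. Those genes are near-copies of each other, and how reads that match several were counted is not given in the sources used here, so single values are uncertain. ZNF626 rose from 0.0653, 0.0198 and 0 to 6.48, 7.90 and 6.79 CPM (7.84 ± 0.37, and 9.08 without sensitive replicate 2) and averaged 0.00700 CPM in EB-resistant. ZNF431 rose from 7.14, 10.1 and 11.5 to 49.2, 76.9 and 65.1 CPM and exceeded DT-resistant by 1.49 and EB-resistant by 2.51 on the log2 scale. The median over the run was 2.69 in DT-resistant and 1.67 in EB-resistant. Of all 446 tested genes with a ZNF symbol, 158 rose and 84 fell (median 0.15).

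In all, 24 runs of at least 4 neighbouring genes were found, 15 higher (75 genes) and 9 lower (51 genes). With genes under 1 CPM left out, 11 runs were left, among them the 13 genes from SLC8A1 to PREPL, 13 from ADAM17 to RN7SL832P and a run on chromosome 3 that ends at NUP210. The number of higher runs was 23 without sensitive replicate 2. All members were also called in the same direction in DT-resistant for 12 of the 15 higher and 7 of the 9 lower runs, and in EB-resistant for 5 and 3. A run at chr5:76403285-76835315 held IQGAP2 and the thrombin receptor family genes F2RL2, F2R and F2RL1, with F2R up from 98.5, 108 and 114 to 334, 269 and 250 CPM (1.41 ± 0.10). At chr19:6494319-6730562 the run held TUBB4A, TNFSF9, CD70 and C3, with the T cell costimulatory ligand CD70 up from 5.79, 5.0 and 5.09 to 24.9, 17.5 and 18.7 CPM (1.94 ± 0.15). At chr4:79901146-80963750 a lower run held FGF5, which fell from 88.6, 88.4 and 88.2 to 17.3, 18.5 and 16.6 CPM (-2.34 ± 0.16). Among windows that do not overlap, the next highest median, 0.77, was on chromosome X (chrX:115518182-123913976). It holds LAMP2, and 26 of its 40 genes rose. The third lowest, -0.77, spanned chr17:909632-3669668, where 34 of 40 genes fell, among them YWHAE (-0.48 ± 0.061), PAFAH1B1 (-0.88 ± 0.097) and PRPF8 (-0.60 ± 0.074). By whole chromosome, the share that rose was highest on chromosomes 13 (43.4%) and 5 (42.8%), and the share that fell was highest on chromosomes 10 (46.9%), 4 (43.4%) and 2 (41.9%).

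**Figure D3:**
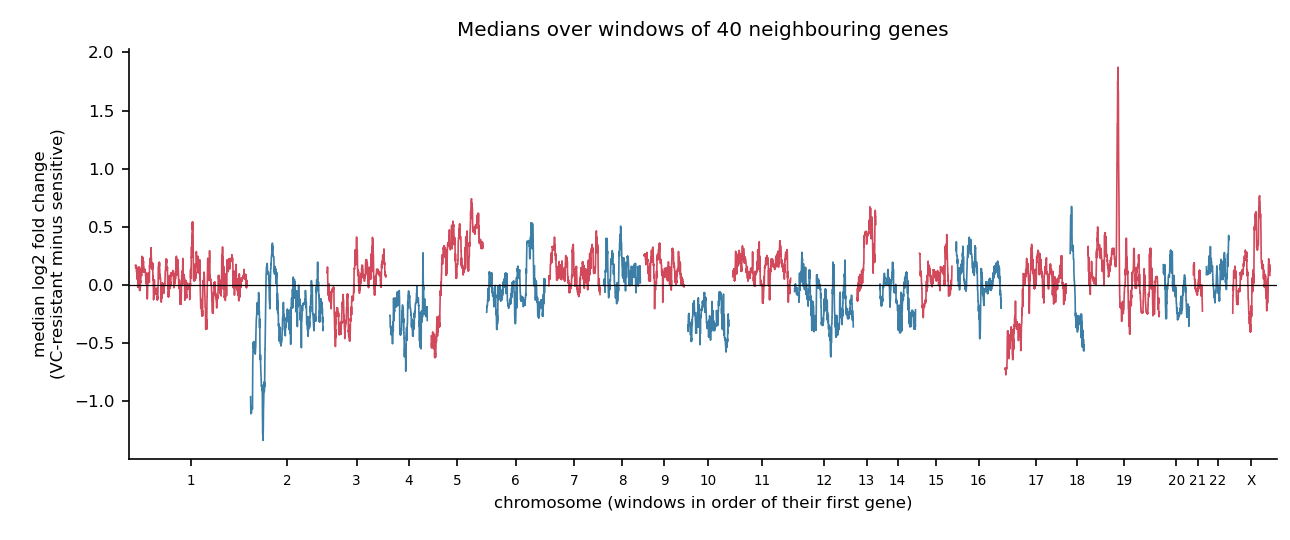
Median log2 fold change, VC-resistant minus sensitive, over each of 16181 overlapping windows of 40 neighbouring tested genes, in order along chromosomes 1 to 22 and X, with alternating colours by chromosome. Chromosome 19 holds the peak at 1.87 and chromosome 2 the lowest point at -1.34, while the 1st and 99th percentiles of all windows are -0.62 and 0.57.

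Identity markers gave a mixed picture, with transcripts of several lineages moving in opposite directions. MITF, the regulator of the melanocyte lineage, rose from 40.7, 49.1 and 51.7 to 72.9, 62.3 and 64.0 CPM (0.49 ± 0.094, adjusted p = 0.000395). Of 16 tested melanocyte differentiation genes, 6 rose and 5 fell (median 0.23), or 3 fell without sensitive replicate 6 or VC-resistant replicate 2. Over all genes 27.6% rose and 27.4% fell. GPNMB, a glycoprotein of melanosomes and lysosomes, rose from 23.7, 19.5 and 21.9 to 187, 167 and 168 CPM (3.00 ± 0.12). MLPH, the linker that ties melanosomes to a myosin motor, fell from 40.0, 40.6 and 42.8 to 5.72, 4.62 and 4.76 CPM (-3.03 ± 0.12). The pigment genes TYRP1, DCT, PMEL and TRPM1 stayed under 1 CPM in all 6 libraries.

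KIT, the receptor for stem cell factor, rose from 2.94, 4.51 and 6.2 to 9.34, 12.0 and 11.9 CPM (1.28 ± 0.20), above DT-resistant (3.65 CPM) and below EB-resistant (57.7 CPM). Its ligand KITLG rose too, from 4.74, 5.36 and 7.51 to 19.9, 17.6 and 15.9 CPM (1.6 ± 0.15). EDNRB, the endothelin receptor of the melanoblast, rose from 1.76, 1.27 and 1.22 to 4.41, 4.01 and 3.6 CPM, and exceeded DT-resistant by 1.14 and EB-resistant by 1.11 on the log2 scale. Of the 3 resistant lines, EDNRB was therefore highest in VC-resistant.

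Of 24 tested genes of the dedifferentiated melanoma state, 15 fell and 6 rose (median -0.49). SOX9, a neural crest and stem cell factor, fell from 75.9, 90.2 and 94.5 to 21, 13 and 14.7 CPM (-2.42 ± 0.18), and NGFR, the nerve growth factor receptor of neural-crest-like cells, from 1.98, 1.96 and 1.61 to 0.262, 0.154 and 0.149 CPM (-3.31 ± 0.39). AXL, a receptor kinase often raised in resistant melanoma, fell from 2491, 2314 and 1938 to 1574, 1499 and 1546 CPM (-0.55 ± 0.082). EGFR fell by 0.61 ± 0.11. WNT5A, a ligand of dedifferentiated cells, fell by 0.50 ± 0.15 (adjusted p = 0.0134, and 0.0505 to 0.0604 without sensitive replicate 6, VC-resistant replicate 5 or VC-resistant replicate 6) to 72.7, 62.3 and 59.3 CPM, where DT-resistant had 262 CPM (log2 difference -2.02, adjusted p = 3.00e-06). The members that rose included IL6 (1.78 ± 0.31), NRG1 (0.68 ± 0.17) and SLIT2 (0.73 ± 0.10). Among 18 neural crest genes 3 rose and 8 fell. GFRA1, the GDNF receptor, rose by 2.43 ± 0.16, and TWIST2 and MSX1 fell by 2.06 ± 0.25 and 1.07 ± 0.13.

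Of 23 tested contractile genes of smooth muscle 11 rose and 3 fell (median 0.28), where 27.6% and 27.4% of all genes did. TAGLN, an actin-binding protein, rose from 0.435, 0.476 and 0.261 to 87.9, 68.8 and 55.9 CPM (7.48 ± 0.22), above DT-resistant (23 CPM) and EB-resistant (7.35 CPM). MYOCD, the coactivator that drives this programme, rose from 0.281 to 2.06 CPM on average (2.86 ± 0.35), and MYLK, the myosin light chain kinase, from 174, 185 and 178 to 270, 298 and 302 CPM (0.70 ± 0.080). ACTA2, smooth muscle actin, fell from 1.31, 0.992 and 1.09 to 0.289, 0.154 and 0.205 CPM (-2.39 ± 0.35), and SMTN fell by 1.5 ± 0.11. MYH11 and DES, which define mature smooth muscle, stayed under 1 CPM in all 6 libraries. Of 14 tested cadherins and factors of the epithelial to mesenchymal transition, 6 rose and 3 fell (median 0.39). The intermediate filament VIM fell by 0.49 ± 0.072, ZEB1 fell by 0.48 ± 0.11 and ZEB2 rose by 0.52 ± 0.079.

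Summed markers of other cell types moved along with these results, and their part in them was not tested. The 12 fibroblast markers in the table summed to 116 to 153 CPM in sensitive and 282 to 315 CPM in VC-resistant, with THY1 giving the most counts and COL1A2, COL3A1, DCN and PDGFRA among the 6 under 1 CPM in all 6 libraries. The 8 keratinocyte and epithelial markers went from 294 to 372 CPM down to 118 to 129 CPM, with KRT18 giving the most counts and 4 of the 8 under 1 CPM, CDH1 and DSP included. The 11 endothelial markers went from 251 to 278 CPM down to 109 to 116 CPM, with TIE1 giving the most counts, while 7 of them, PECAM1, CDH5 and KDR included, were under 1 CPM. The 8 immune cell markers were all under 1 CPM and summed to 1.09 to 1.27 CPM in sensitive and 0.448 to 0.704 CPM in VC-resistant. The 22 melanocyte genes summed to 246 to 254 CPM and 383 to 425 CPM, the 9 Schwann and neuronal markers to 133 to 162 CPM and 168 to 212 CPM, and the 25 smooth muscle genes to 4401 to 4634 CPM and 4892 to 6007 CPM. All libraries come from a cultured melanoma cell line and lines made from it, not from a tissue with other cell types. In bulk RNA, fewer cells that express a marker and less of its RNA per cell cannot be told apart.

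Several genes of other lineages went from almost no counts to clear expression or back. NR5A1, the steroidogenic nuclear receptor, had 1 count in the 3 sensitive libraries together and 13.9, 13.6 and 12.0 CPM in the VC-resistant ones, a ratio of 1858 with an exact 95% counting interval of 333 to 73441. EB-resistant averaged 0.00679 CPM and DT-resistant 11.1 CPM. CYP11A1, the first enzyme of steroid synthesis, rose by 0.83 ± 0.24. Of the 12 tested steroidogenesis genes 4 rose and 3 fell, near the shares over all genes (27.6% and 27.4%). The long noncoding RNA ENSG00000227706 on chromosome 6 had 3 counts in sensitive and 66.3, 165 and 181 CPM in VC-resistant (ratio 6825, interval 2335 to 33096). In the other direction, the neurotensin receptor gene NTSR1 went from 26.4, 15.8 and 13.3 CPM to 2 counts (ratio 1262, interval 349 to 10427) and the thrombin receptor gene F2RL3 from 8.23, 5.91 and 6.27 CPM to 3 counts (ratio 310, interval 106 to 1504). F2RL3 averaged 4.83 CPM in DT-resistant and 3.53 CPM in EB-resistant. Intervals cover counting error only.

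**Figure D4:**
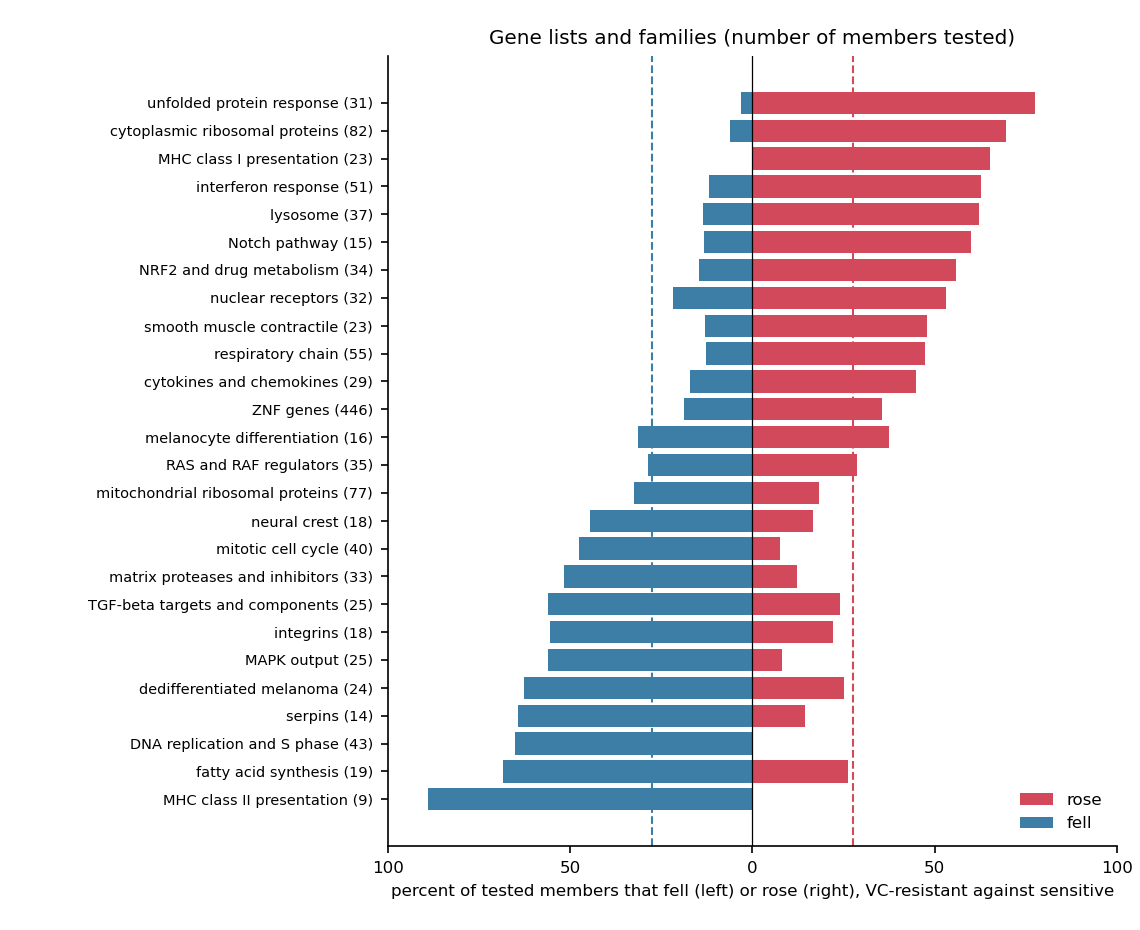
Share of tested members that rose (right) or fell (left) in VC-resistant against sensitive for 26 gene lists and families, with the number tested in brackets and dashed lines at the shares over all genes, 27.6% and 27.4%. The unfolded protein response and ribosomal protein lists lie furthest right at the top, and MHC class II and fatty acid synthesis furthest left at the bottom.

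Of 51 tested interferon-response genes 32 rose and 6 fell (median 0.57), where 27.6% and 27.4% of all genes did. In DT-resistant 43 rose and 3 fell (median 1.26, against 29.8% and 29.3% of all genes). In EB-resistant 34 rose and 5 fell (median 0.79, against 28.5% and 27.6%). Tested directly, 35 of the 51 were lower in VC-resistant than in DT-resistant and 1 was higher, where 8.71% and 7.08% of all genes were. Without VC-resistant replicate 6, 24 were lower. Against EB-resistant, 17 of the interferon-response genes were lower and 9 higher (29.6% and 28.8% of all genes). Many promoters of such genes carry the interferon-stimulated response element, where the factors activated by interferon bind. Its core, TTTC followed by any 2 bases and again TTTC, on either strand, was searched in the 300 bases from 250 before to 50 after the RefSeq start, on GRCh38.p14. The core lay in at least 1 promoter of 1195 of 27305 genes (4.38%) and of 28 of the 41 members of the list with a promoter (68.3%). Of those 28, 21 rose and 2 fell, and of the 13 without it 3 rose and 3 fell. The stretches below, of 60 bases each, come from the 3 members with the core that are described next, and each is written 5′ to 3′ on the strand of its gene with the core in capitals.
IFIT1 (chr10:89392478-89392537, plus strand): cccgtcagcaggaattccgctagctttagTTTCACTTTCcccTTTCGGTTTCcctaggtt
EPSTI1 (chr13:42992261-42992320, minus strand): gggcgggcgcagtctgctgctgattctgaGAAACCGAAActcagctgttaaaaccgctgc
RTP4 (chr3:187368325-187368384, plus strand): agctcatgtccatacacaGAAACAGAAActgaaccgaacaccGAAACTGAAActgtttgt

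IFIT1, which binds foreign RNA, rose from 5.53, 5.46 and 8.22 to 23.1, 26.3 and 27.3 CPM (2.00 ± 0.15). EPSTI1, an interferon-induced gene first found in breast cancer stroma, rose from 2.26, 2.7 and 2.63 to 22.3, 19.3 and 17.8 CPM (2.96 ± 0.23) and reached 43.7 CPM in DT-resistant. RTP4, a receptor transporter induced by interferon, rose from 0.501, 0.536 and 0.500 to 1.89, 2.75 and 2.59 CPM (2.23 ± 0.21). The groups do not overlap at any of the 3. IFIT2, a partner of IFIT1, was above both other resistant lines (log2 differences 0.89 to DT-resistant and 1.24 to EB-resistant). IRF1, a transcription factor of the pathway, was lower in all 3 VC-resistant libraries, at 17.1, 18.6 and 17.2 CPM against 29.8, 30.1 and 33.6 CPM, without a call (-0.82 ± 0.41, adjusted p = 0.122, but 1.14e-05 without EB-resistant replicate 2). MX2 (-0.86 ± 0.076), TRIM25 (-0.69 ± 0.10), IFIT5 (-0.59 ± 0.087) and IFI16 (-0.40 ± 0.075) fell.

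Antigen presentation split by class. Of 23 tested MHC class I presentation genes, 15 rose and 8 were not called (median 0.65), where 27.6% of all genes rose and 27.4% fell. B2M, the invariant chain, rose from 652, 599 and 599 to 1174, 994 and 1061 CPM (0.80 ± 0.15), and the trimming peptidase ERAP1 from 85.4, 82.9 and 88.2 to 195, 178 and 186 CPM (1.13 ± 0.084). In contrast 8 of 9 tested class II genes fell (median -2.22). CIITA, the transactivator that switches class II genes on, fell from 2.2, 2.14 and 2.7 to 0.105, 0.242 and 0.224 CPM (-3.57 ± 0.38), and HLA-DRA fell by 2.76 ± 0.36. HLA genes are close copies, so reads could be split between them. CD274, the ligand PD-L1, rose from 150, 132 and 102 to 318, 196 and 200 CPM (0.89 ± 0.20), with 275 CPM in DT-resistant and 41.6 CPM in EB-resistant.

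Of 29 cytokine and chemokine genes 13 rose and 5 fell (median 0.64), or 3 fell without VC-resistant replicate 2 or 6. The shares over all genes were 27.6% and 27.4%. CCL5, a T cell attractant, rose from 1.96, 1.75 and 2.63 to 21, 28.3 and 24 CPM (3.53 ± 0.33), IL32 by 3.61 ± 0.20 and IL12A by 1.40 ± 0.19. IL6 rose from 85.2, 45.6 and 45.2 to 188, 224 and 191 CPM and was far below DT-resistant (883 CPM, log2 difference -2.14). IL1B, the inflammatory cytokine, fell from 829, 812 and 595 to 47.2, 72.4 and 76.5 CPM (-3.51 ± 0.56), while EB-resistant had 3.12 CPM. IL1A fell by 1.88 ± 0.31 and LIF by 1.13 ± 0.19. IL7R, a receptor normally of lymphocytes, rose from 115, 150 and 156 to 361, 428 and 449 CPM (1.56 ± 0.20).

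In the unfolded protein response, the endoplasmic reticulum adds chaperones and folding enzymes. Of 31 tested members 24 rose and 1 fell (median 0.57). In EB-resistant 10 rose and 10 fell (median -0.04), and tested directly 24 were higher in VC-resistant than in EB-resistant and 3 lower (background 28.8% and 29.6%). The 3 lower calls were lost without EB-resistant replicate 2. Against DT-resistant, 10 were lower and 0 higher, where 8.71% and 7.08% of all genes were. The lower ones numbered 11 with a replicate block and 8 without DT-resistant replicate 2. HSPA5, the chief chaperone BiP, rose from 1719, 1544 and 1380 to 4551, 3459 and 3261 CPM (1.28 ± 0.18) and averaged 7020 CPM in DT-resistant. HYOU1, its exchange factor, rose from 380, 335 and 323 to 902, 755 and 716 CPM (1.19 ± 0.11). PDIA4, a disulfide isomerase, rose by 1.00 ± 0.11, the lectin chaperone CANX by 0.84 ± 0.072 and the sensor kinase EIF2AK3 by 0.92 ± 0.093. ATF6, another sensor, was not called (-0.10 ± 0.10). PDIA6 was the 1 member that fell, from 403, 398 and 408 to 350, 288 and 308 CPM (-0.35 ± 0.096). It lies at 10.8 Mb on chromosome 2, and 42 of 65 tested genes between 0 and 20 Mb fell. Whether its position plays a part was not tested.

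Promoters of this response carry the ER stress response element, searched as CCAAT, any 9 bases and CCACG, on either strand in the same windows. It lay in at least 1 promoter of 25 of 27305 genes (0.0916%) and of 8 of the 29 members of the list with a promoter (27.6%). Of the 8, 7 rose and 1 fell, and 15 of the 21 without it rose and the others were not called. Stretches of 60 bases around the element are shown for a pair of members that rose and for PDIA6, which fell, with the element in capitals. A match of letters is a description and shows no binding.
HSPA5 (chr9:125241370-125241429, minus strand): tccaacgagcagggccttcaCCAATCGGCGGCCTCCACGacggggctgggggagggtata
CANX (chr5:179698758-179698817, plus strand): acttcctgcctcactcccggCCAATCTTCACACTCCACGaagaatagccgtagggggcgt
PDIA6 (chr2:10812832-10812891, minus strand): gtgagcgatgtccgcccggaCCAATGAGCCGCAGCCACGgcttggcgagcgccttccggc

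**Figure D5:**
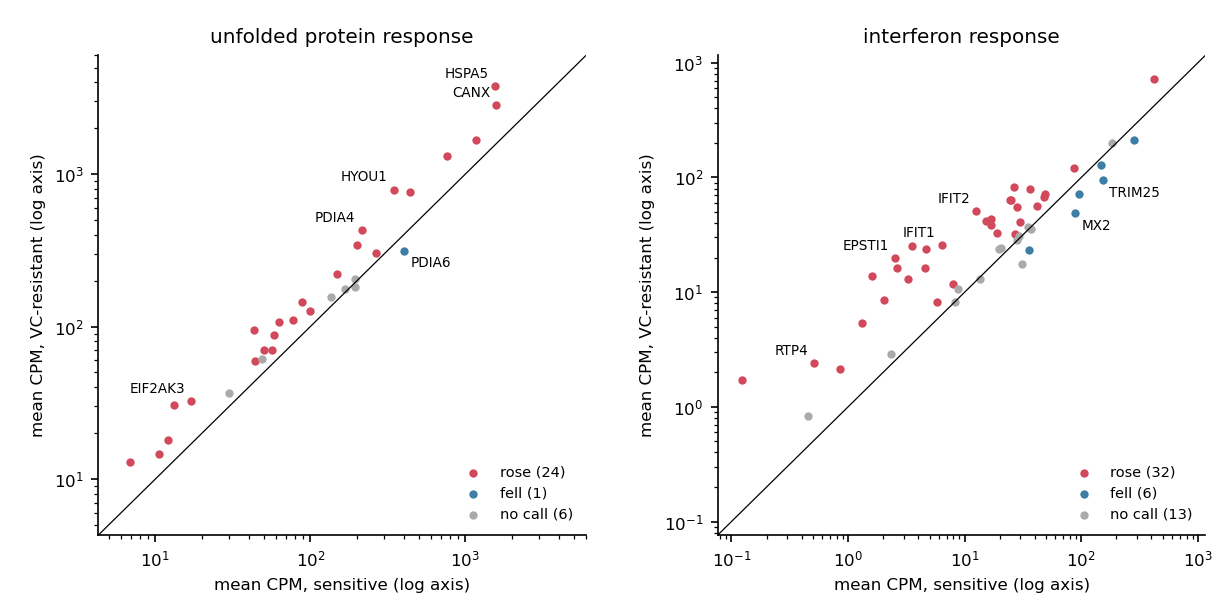
Mean CPM of the 3 sensitive (x) and 3 VC-resistant (y) libraries on log axes for 31 unfolded protein response genes (left) and 51 interferon-response genes (right), coloured by call, with the line of equality. HSPA5 and CANX lie above the line at the top of the left panel and PDIA6 below it, and on the right MX2 and TRIM25 are among the 6 genes that fell.

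Of 82 tested cytoplasmic ribosomal protein genes 57 rose and 5 fell (median 0.34), or 3 fell without sensitive replicate 5, sensitive replicate 6 or VC-resistant replicate 5. Their share of all counts was 5.60 ± 0.121% in sensitive and 7.89 ± 0.255% in VC-resistant. RPL32 from the chromosome 3 stretch accounts for 0.0758% and 1.10% of all counts. Without it the shares were 5.53 ± 0.119% and 6.78 ± 0.223% (SD, n = 3), and the median over the 81 other tested genes was 0.33. RPL39 on chromosome X rose by 1.09 ± 0.096, RPS23 by 0.77 ± 0.071 and RPS14 by 0.71 ± 0.068. RPS7 and RPS27A, which fell by 0.68 ± 0.075 and 0.55 ± 0.066, lie on the short arm of chromosome 2. Elongation factor EEF2 rose by 0.65 ± 0.10. Of 77 mitochondrial ribosomal protein genes 14 rose and 25 fell (median -0.09).

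Lysosomal genes rose, 23 of 37 against 5 that fell (median 0.51), where 27.6% and 27.4% of all genes did. Those that rose include the membrane protein LAMP2 (from 281, 228 and 230 to 672, 576 and 615 CPM) and the hexosaminidase subunit HEXA (0.65 ± 0.079). The cathepsins CTSK and CTSH fell by 2.77 ± 0.18 and 3.8 ± 0.30. In the nuclear-encoded respiratory chain 26 of 55 rose (median 0.18), among them UQCRC2 (0.92 ± 0.073) and CYC1 (0.68 ± 0.066), while 7 fell. That number was 3 or 4 when sensitive replicate 5 or 6 or VC-resistant replicate 5 or 6 was left out. The mitochondrial coactivators PPARGC1A (from 4.79, 3.67 and 4.39 to 18.7, 13.3 and 14.2 CPM) and PPARGC1B rose by 1.84 ± 0.18 and 1.83 ± 0.24, while TFAM, which packs mitochondrial DNA, fell by 0.98 ± 0.10.

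Of 33 tested matrix-degrading enzymes and their inhibitors 17 fell and 4 rose (median -0.57). In DT-resistant 12 fell and 11 rose (29.3% and 29.8% of all genes), and tested directly 14 of the 33 were lower in VC-resistant than in DT-resistant (8.71% of all genes). MMP1, interstitial collagenase, fell from 2255, 2100 and 2540 to 36.9, 95 and 88.5 CPM (-4.97 ± 0.54). TIMP3, a protease inhibitor held in the matrix, fell from 112, 61.1 and 52.1 to 1.15, 0.506 and 0.522 CPM (-6.74 ± 0.45). The plasminogen activator PLAU and its receptor PLAUR fell by 1.99 ± 0.12 and 0.89 ± 0.12. Of 14 serpins 9 fell and 2 rose (median -1.54).

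Integrins followed, with 10 of 18 down and 4 up (median -0.44). ITGA6, a laminin receptor subunit, fell by 1.05 ± 0.098. ITGB3 went the other way, from 4.29, 3.02 and 2.61 to 53, 36.2 and 29.9 CPM (3.58 ± 0.26), and ITGA7 rose from 16.7, 14.2 and 15.6 to 62.3, 38.6 and 31.3 CPM with 11 and 11.5 CPM in DT-resistant and EB-resistant. TGM2, a transglutaminase that crosslinks matrix, fell from 2110, 2554 and 2295 to 38.1, 55.9 and 54.4 CPM (-5.55 ± 0.39), and ESM1, an endothelial proteoglycan, from 118, 126 and 99 to 0.0787, 0.154 and 0.112 CPM (-9.91 ± 0.20). Among the collagens 7 of 24 rose and 6 fell, close to the shares over all genes (27.6% and 27.4%). CSPG4, the melanoma-associated proteoglycan, rose from 79.5, 80.5 and 64.0 to 229, 206 and 207 CPM (1.52 ± 0.089) and was above both other resistant lines.

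In the TGF-beta pathway, 14 of 25 genes fell and 6 rose (median -0.39), where 27.4% and 27.6% of all genes did. The receptors moved apart: TGFBR1 rose from 154, 150 and 150 to 1086, 948 and 888 CPM (2.69 ± 0.093) and TGFBR2 fell from 163, 191 and 186 to 78.9, 84.1 and 81.8 CPM (-1.14 ± 0.084). TGFBR1 reached 2260 CPM in DT-resistant and 238 CPM in EB-resistant. The ligand TGFB2 rose from 63.9, 58.2 and 55.7 to 680, 433 and 395 CPM (3.09 ± 0.22), and the latent TGF-beta binding proteins LTBP1 and LTBP2 fell by 1.76 ± 0.19 and 3.11 ± 0.21. ID3, a target of BMP signals, rose from 1.81, 2.66 and 2.76 to 44.5, 72.2 and 76.7 CPM (4.74 ± 0.34), along with BMP4 (2.63 ± 0.19), while BMP2 fell by 3.26 ± 0.32. Among other genes of growth factor families, FGF13 rose from 0.544, 0.774 and 1.00 to 43.8, 35.6 and 36.9 CPM (5.64 ± 0.16), and TGFA and VEGFA fell by 3.41 ± 0.34 and 1.66 ± 0.13. MERTK, a receptor kinase related to AXL, fell by 4.01 ± 0.31, and its ligand PROS1 rose from 14, 13 and 17.4 to 66.8, 63.0 and 67.3 CPM (2.15 ± 0.099). Of 15 Notch pathway genes 9 rose and 2 fell (median 0.79), and of 26 WNT pathway genes 9 rose and 12 fell. The shares over all genes were 27.6% and 27.4%.

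Genes of DNA replication fell. Of 43 tested, 28 fell and 15 were not called (median -0.57), though only 16 fell when sensitive replicate 6 was left out and 18 without VC-resistant replicate 2. Besides RRM2, UHRF1, which recruits DNA methyltransferase, fell from 65.0, 95.5 and 114 to 26.3, 39.9 and 37.7 CPM (-1.40 ± 0.22), and GINS3, a helicase subunit, by 0.77 ± 0.13. Of 40 mitotic genes 19 fell and 3 rose, with the condensin subunit NCAPG at -1.17 ± 0.14 and the motor CENPE at -1.39 ± 0.20. MKI67, the proliferation marker, fell by 0.37 ± 0.11 (adjusted p = 0.00944), and by 0.25 without a call when sensitive replicate 6 was left out (log2 change -0.25, adjusted p = 0.0711). The CDK inhibitor CDKN1A fell as well, from 86.9, 69.0 and 68.7 to 3.62, 3.83 and 4.03 CPM (-4.29 ± 0.42), while CDKN1B rose by 0.89 ± 0.16. The survival genes BCL2L1 and MCL1 fell by 0.87 ± 0.073 and 0.66 ± 0.094.

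In fatty acid synthesis 13 of 19 fell and 5 rose (median -0.55), or 3 rose without sensitive replicate 5, sensitive replicate 6 or VC-resistant replicate 2, with the regulator SREBF1 down from 127, 115 and 101 to 40.0, 40.7 and 30.2 CPM (-1.63 ± 0.14) and the elongase ELOVL2 up by 1.93 ± 0.096. Of 28 tested genes of adipocytes and lipid uptake 7 rose and 11 fell (median -0.11), where 27.6% and 27.4% of all genes did. The fatty acid transporter CD36 rose from 0.109, 0.0794 and 0.174 to 13.9, 15.3 and 17.3 CPM (6.99 ± 0.24), and the lipid droplet protein PLIN2 by 0.91 ± 0.082. Of 5 metallothioneins, zinc-binding proteins that are near-copies of each other, 4 fell, with MT2A down from 952, 870 and 857 to 292, 278 and 349 CPM (-1.54 ± 0.15). Among 34 NRF2 and drug metabolism genes 19 rose and 5 fell (median 0.22), including ferritin heavy chain FTH1 (1.44 ± 0.091) and the lipid peroxidase GPX4 (0.82 ± 0.090). The drug exporter ABCG2 fell from 7.55, 12.7 and 14.4 to 3.31, 3.85 and 4.70 CPM (-1.54 ± 0.23). In glucose metabolism, the transporter SLC2A1 fell by 1.04 ± 0.088 and the lactate exporter SLC16A3 by 2.34 ± 0.11, and hexokinase HK2 rose by 0.60 ± 0.12.

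The line differed from all 3 other groups at few genes: 50 (0.292%) were at least 2-fold higher than in each, and 68 (0.397%) at least 2-fold lower. Besides TAGLN, ITGA7 and ZNF431, the higher ones included GBX2, a homeobox factor of the developing hindbrain boundary, with 11.2, 7.88 and 6.32 CPM against means of 0.805 CPM in sensitive, 1.91 CPM in DT-resistant and 0.324 CPM in EB-resistant. LAMA4, a laminin chain, had 24.2, 37.9 and 38.8 CPM against 10.4, 10.1 and 10.5 CPM in the parent, and 3.83 and 4.87 CPM in DT-resistant and EB-resistant. MYRIP, which links melanosomes and secretory granules to myosin, was at 7.92, 10.6 and 9.79 CPM and under 4 CPM in every sensitive library. The genes lower than in all 3 included the kinase SRC (5.12, 3.35 and 2.87 CPM against 28.0, 27.8 and 26.1 CPM, -2.87 ± 0.19), and the peptidase ANPEP (2.99, 3.65 and 5.24 CPM against 84.9, 80.1 and 80.5 CPM, -4.35 ± 0.16). CADM1, an adhesion molecule, was at 40.9, 31.7 and 28.7 CPM against 56.3, 70.9 and 78.2 CPM in the parent, while DT-resistant and EB-resistant had 334 and 246 CPM. THBS1, the matrix glycoprotein thrombospondin, fell by 1.20 ± 0.20 from the parent, where EB-resistant had 1583 CPM.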

How the data were processed

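RNA of 12 WM1366 libraries, 3 per group, had been selected by poly(A), prepared with a strand-specific kit and read as 100 bp pairs, per the labels' protocols. The authors deposited raw read counts per gene, made with STAR 2.7.10b and featureCounts 2.0.1 on hg38, per the submitters' processing notes. How strand entered the counting, which annotation was used and at what dose the drugs were given is not stated here. All 12 libraries were fitted with edgeR 4.0.16 (TMM, filterByExpr, robust quasi-likelihood test, 8 residual degrees of freedom, Benjamini-Hochberg over 17114 genes, threshold 0.05). Standard errors were the log2 fold change divided by the square root of F. A fit of only the 6 compared libraries was run on simulated data, with 15874 genes. It recovered 32, 40, 49 and 50 of 50 genes changed 1.5, 2, 4 and 8-fold, and called 12 unchanged genes. Changes were planted in few genes, all with higher counts, so the power of the 12-library fit and at low counts was not tested. Alternatives were a replicate block, DESeq2 1.42.0, its size factors, other filters, only the 2 groups and leaving out each library. A run is at least 4 neighbouring tested genes called in 1 direction by at least 2-fold. Intervals and depths cover counting error only.

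Between VC-resistant and DT-resistant libraries, deviations from the group means correlated at 0.337, 0.151 and 0.195 for the same experiment number. VC-resistant replicate 5 with DT-resistant replicate 6 gave 0.136, and 6 with 5 gave 0.0339. Pairs of replicate 2 with 5 or 6 gave -0.266 to -0.146, so the match by number was clearest for replicate 2. Members and lists were chosen with earlier results of these data known. Named genes were members of lists, families, runs and windows, the largest changes, genes apart from all groups and genes near 0 in 1 group, the members picked by adjusted p and the largest changes only where the call held without each library. A set of pathway and identity genes, such as ETV5, WNT5A and MKI67, and the genes of runs and windows were named whatever their call. Some items are not reported here.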

Additional observations from a re-analysis of the deposited data

Results flagged for a closer look

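Only the set of pathway and identity genes named whatever their call was screened here, so the number is not a count over all genes. At 4 of them the VC-resistant line and another resistant line were called in opposite directions from the shared parent. The direct test between the lines also passed the threshold (edgeR's quasi-likelihood test, adjusted p). WNT5A was 0.50 lower than the parent in VC-resistant (log2 change -0.50, adjusted p = 0.0134) and 1.52 higher in DT-resistant (adjusted p = 2.92e-06), a difference of -2.02 (adjusted p = 3.00e-06). PPARG was 1.82 higher in VC-resistant (adjusted p = 0.000148) and lower in DT-resistant (log2 change -2.38, adjusted p = 0.000201), a difference of 4.20 (adjusted p = 3.72e-06). CYP11A1 was 0.83 higher in VC-resistant (adjusted p = 0.00817) and lower in EB-resistant (log2 change -2.14, adjusted p = 1.83e-05), a difference of 2.97 (adjusted p = 5.29e-07). CD274 was 0.89 higher in VC-resistant (adjusted p = 0.00324) and lower in EB-resistant (log2 change -1.62, adjusted p = 5.46e-05), a difference of 2.52 (adjusted p = 2.35e-06).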

How the results depend on the processing

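Over all alternatives the number of genes called between VC-resistant and sensitive ranged from 8313 to 9951. With genes of at least 1 CPM in 3 libraries, 1029 were at least 2-fold lower and 11 runs of neighbouring genes were found (7 higher, 4 lower), since fewer genes were tested. The replicate numbers were not used to pair VC-resistant with sensitive libraries, whose same-number deviations correlated at 0.0885, 0.0352 and 0.0454. A replicate block gave 9951 calls there, and 3514 in place of 2702 between VC-resistant and DT-resistant. Between those lines it moved the counts given above by at most 2, to 11 higher genes of ERK output, 36 lower interferon-response genes, 11 lower unfolded protein response genes and 16 lower matrix protease genes. CCND1, 1 of the 12 genes of ERK output called higher there, was not called with the block (edgeR adjusted p = 0.0561). Leaving out 1 library at a time gave 8313 to 9826 calls against sensitive, 1722 to 2879 against DT-resistant (the lowest without VC-resistant replicate 6) and 9014 to 10525 against EB-resistant, and 24 to 32 runs. It moved the list counts between VC-resistant and DT-resistant further than the block did. Only 8 genes of ERK output were higher without VC-resistant replicate 5. Without VC-resistant replicate 6, 24 interferon-response genes and 12 matrix protease genes were lower. Without DT-resistant replicate 2, 8 unfolded protein response genes were lower. The run that ends at NUP210 had 5 genes with no filter and under DESeq2, and that of LRPPRC 5 genes under both. Of the 3320 values of named genes under alternatives, 21 lost their call. Direction changed without a call for NRAS (-0.06 to 0.01 over the fits that left out 1 library), TYRP1 (-0.21 to 1.04) and ATF6 (-0.19 to 0.04). The causes were not tested. Genes under 1 CPM rest on few counts, so small differences there were not detectable at this depth.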
